A study of Mus musculus with 92 samples.

Results

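The comparison described here set the livers of aged female mice fed a Low Amino Acid diet against those of aged female mice fed the Control diet. It held 15 of the 92 libraries of the study: 7 labelled Low Amino Acid and 8 labelled Control, all female, all killed at 24 months. They were found by the labelled sex, age and diet, and only the 17275 lines of the gene table that are filled under every column were used. The animals were HET3 mice, a genetically heterogeneous cross, so that the animals of a group differ in genotype. The labels name no transgene or other treatment, and all groups were fasted for 16 h before their livers were frozen. The labels start the diets of these animals at 6 months of age, while the series description gives 13 weeks on diet, so the time on diet is uncertain. Younger females killed at 6 months (8 Control, 8 Low Amino Acid) and aged females on a Low Isoleucine diet (8) were used where a difference in response was tested. In a bulk liver sample, fewer cells of a type and less RNA per cell cannot be told apart.

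The liver is the main organ that senses and disposes of dietary amino acids. When amino acids run short, the kinase GCN2 phosphorylates the initiation factor eIF2, general translation slows, and the transcription factor ATF4 is made and turns on genes for amino acid synthesis, amino acid transport and tRNA charging. The growth kinase mTORC1, which is active when amino acids are plentiful, also raises ATF4 and drives ribosome production. The liver is at the same time the source of the acute phase proteins, such as serum amyloid A, haptoglobin and fibrinogen, which rise under inflammatory cytokines, and neutrophils that enter the tissue add their own transcripts.

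The libraries held 21.5 M to 27.6 M estimated counts each over the lines used (median 23.7 M, where M stands for 1000000). Levels are given as CPM, the share of a library's counts in parts per 1000000 after TMM scaling. Hepatocyte transcripts were abundant in every library: the mean log2 CPM of 11 hepatocyte genes ran from 11.12 to 11.95 in Control and from 11.479 to 12.003 in Low Amino Acid livers, and albumin (Alb) averaged 77300 CPM and 81298 CPM. The 3 Y-linked genes checked summed to at most 0.553 CPM in these 15 libraries. One library of the wider female set, replicate 3 of the 6-month Low Isoleucine group, carried 50.8 CPM and went against its label. It was in neither compared group and entered the filter, the scaling and the estimate of spread.

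Before any diet effect, the livers differed within each group in acute phase and neutrophil transcripts. The mean log2 CPM of 27 acute phase genes was 10.63, 7.74, 9.15, 8.27, 11.03, 7.73, 9.17 and 9.44 in Control replicates 1 to 8, and 8.29, 9.03, 7.91, 10.65, 7.801, 8.69 and 8.12 in Low Amino Acid replicates 1 to 7. Control replicates 1 and 5 and Low Amino Acid replicate 4 stood more than 1 log2 unit above every other library, and the groups overlapped over nearly their whole ranges. The mean of 18 neutrophil genes was 4.97, -0.52, 1.79, 4.78, 1.34, -0.93, 2.18 and 2.42 in the controls and -0.29, 4.56, -0.46, 4.10, -1.01, 0.01 and -0.61 on the diet. Here Control replicates 1 and 4 and Low Amino Acid replicates 2 and 4 were high, so both groups held such livers. The marks did not always go together: Control replicate 5 had the highest acute phase mean with a neutrophil mean of 1.34, and Control replicate 4 had an acute phase mean of 8.27 with a neutrophil mean of 4.78. Lcn2, an iron-binding defence protein made by both hepatocytes and neutrophils, belongs to both lists.

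**Figure D1:**
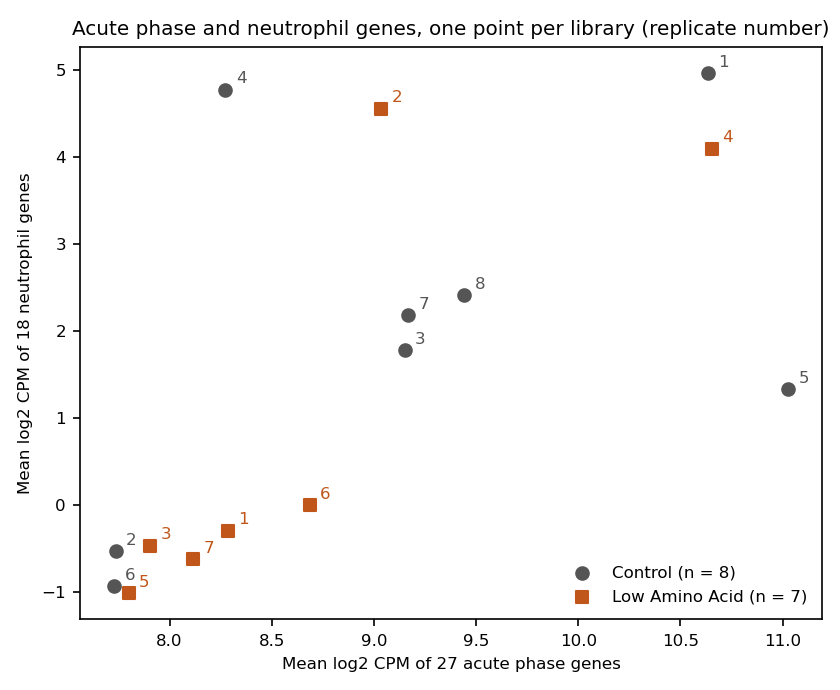
Each point is 1 liver, numbered by replicate; the x axis is the mean log2 CPM of 27 acute phase genes and the y axis that of 18 neutrophil genes. Both diets hold livers at the lower left, and Control replicates 1 and 4 and Low Amino Acid replicates 2 and 4 lie above 4 on the neutrophil axis.

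Single genes showed the width of this spread. Saa2, an acute phase apolipoprotein, ran from 2.48 to 5454 CPM in the controls (median 117) and from 1.96 to 3181 CPM on the diet (median 14.3). Each group thus spanned over 3 orders of magnitude, and reads may be split with its near-identical neighbour Saa1, which has no counts in the lines used. Fga, the fibrinogen alpha chain, ran from 4157 to 50851 CPM in the controls (median 8123) and from 5125 to 15901 CPM on the diet (median 6340.4). Haptoglobin (Hp) ran from 3033 to 18758 CPM and from 2483 to 20234 CPM, and Lcn2 from 7.88 to 3737 CPM and from 20.4 to 5345 CPM. The highest Hp and Lcn2 levels of the 15 livers were thus on the diet, in Low Amino Acid replicate 4. The neutrophil alarmin S100a8 ran from 1.31 to 120.1 CPM in the controls (median 7.99) and from 0.285 to 64.6 CPM on the diet (median 1.12). For none of Saa2, Fga, Hp, Lcn2, S100a8, S100a9 and Ngp did the exact permutation test over all 6435 divisions of 15 livers into 8 and 7 pass (two-sided, adjusted over 23 genes, p = 0.45 to 0.83).

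Over the lists, the median log2 fold change (Low Amino Acid minus Control) was -0.53 for the 27 tested acute phase genes, of which 23 lay below 0, and -0.71 for the 18 tested neutrophil genes, all of them below 0. Over all 12623 genes tested the median was -0.03, and 7106 lay below 0. No gene of either list was called at an adjusted p under 0.05 (edgeR's quasi-likelihood test, Benjamini-Hochberg over all genes). By an unadjusted p under 0.05, 8 acute phase and 0 neutrophil genes were lower, against 9.56% of all genes. DESeq2 and voom, which called 2.08% and 0.658% of all genes, called 0 of either list. The call rests on which livers are kept. With the 4 livers highest in neutrophil genes left out, 2.6% of all genes were called, 1.09% higher and 1.51% lower. Without Control replicates 1 and 4 and Low Amino Acid replicates 2 and 4, the medians were -1.24 and -2.63, and 12 acute phase and 5 neutrophil genes were called lower, Saa2 among them at a log2 fold change of -5.89 (adjusted p = 0.0181). These calls use the spread of the other female groups: the 11 remaining livers fitted alone gave 0 called genes of any kind in edgeR, with 1787 at an unadjusted p under 0.05. Those 4 libraries were named by their neutrophil level, which is itself the outcome here, so these values describe the remaining 11 livers.

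Other blood and tissue cell markers varied in the same livers. Control replicate 7 had the highest lymphocyte (2.97) and macrophage (6.02) list means of the 15. The B cell genes Ms4a1 and Cd79a reached 67.6 and 32.5 CPM there, against medians of 3.17 and 2.03 CPM over the controls. Across 25 tested lymphocyte genes the median log2 fold change was -1.04, with 24 below 0, and across 25 macrophage genes it was -0.63. For 30 interferon response genes it was -0.55, with 29 below 0, against 7106 of 12623 over all genes. None of these 3 lists had a gene called by edgeR, while by an unadjusted p under 0.05 they had 12, 5 and 15 lower genes, against 9.56% of all genes lower and 6.91% higher at that p. DESeq2 called 1 lymphocyte and 1 interferon gene lower, and voom called 0.

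Against this background the diet groups differed in 77 of the 12623 genes tested (percent called 0.61): 46 were higher on Low Amino Acid (0.364) and 31 lower (0.246). These calls come from a fit in which all 47 female libraries share an estimate of the spread. Of the 6 female groups the aged controls were the most variable, with a median SD of log2 CPM over genes of 0.365 against 0.272 in the aged Low Amino Acid livers and 0.215 to 0.290 in the other 4 groups. A fit on the 15 compared livers alone called 3 genes (0.0238%): Sorcs2 and Zfp618 higher (0.0158%) and Cyp2c70 lower (0.00792%). Each of the 77 had an unadjusted p under 0.05 in the same direction in that smaller fit, as had 1350 genes in all. In the larger fit 2079 genes (16.5%) reached an unadjusted p under 0.05. Most of the changes were small: 10 higher and 4 lower genes moved by more than 2-fold. The count of calls moved with single livers, from 8 higher and 7 lower without Control replicate 1 to 113 higher and 128 lower without Low Amino Acid replicate 4. Left out in turn, each of the 15 livers left 10 of the 77 genes called throughout: Slc34a2, Sorcs2, Dnah6, Aqp4, Zfp618, Igf2bp2, Arf6, Mars, Atf4 and Cyp2c70. In 21 of all genes (0.166%) the CPM of the groups did not overlap, 14 with the diet above (0.111%) and 7 with the diet below (0.0555%), and 10 of these were among the 77.

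**Figure D2:**
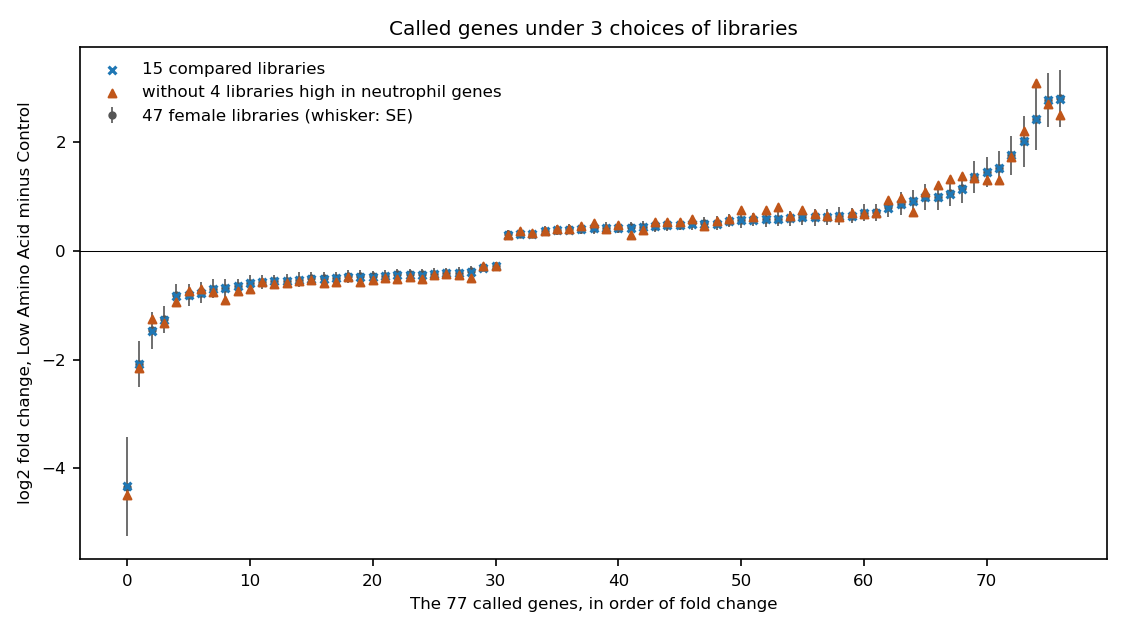
The 77 called genes are ordered along the x axis by log2 fold change (y axis); circles with SE whiskers are the fit of 47 libraries, crosses the fit of the 15 compared livers, and triangles the fit without 4 livers high in neutrophil genes. All 77 keep their sign, and the crosses lie on the circles, since the smaller fit changes the error and hardly the value.

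The largest rise was in Slc34a2, a sodium-dependent phosphate cotransporter best known from lung and gut (chr5:53038081-53071664, GRCm38). It ran from 0.0859 to 1.55 CPM in the controls (median 0.513) and from 1.56 to 6.16 CPM on the diet (median 4.44). The groups touch but do not overlap, and the level stays low in absolute terms. The log2 fold change was 2.80 ± 0.52 (SE, n = 8 and 7; edgeR adjusted p = 0.0097), and the exact permutation test gave p = 0.0036 after adjustment over 23 genes. These 23 genes were chosen with earlier results of these data known, so here and below the p-values of that test are no independent support. On the 15 livers alone the edgeR adjusted p was 0.0509. Of 17 tested solute carriers in its list it was the sole gene called.

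Sorcs2, a sorting receptor of the VPS10 family studied mainly in neurons (chr5:36017180-36398139), was close in size. It ran from 0.131 to 0.995 CPM in the controls (median 0.538) and from 1.15 to 6.38 CPM on the diet (median 4.12), with no overlap. The log2 fold change was 2.78 ± 0.50 (edgeR adjusted p = 0.0097, and 0.0432 on the 15 livers). Zfp618, a zinc finger protein gene (chr4:62965573-63139708), ran from 1.21 to 2.59 CPM (median 2.21) and from 3.56 to 8.17 CPM (median 5.71), again with every diet liver above every control. Its log2 fold change was 1.45 ± 0.27 (edgeR adjusted p = 0.0097, and 0.0465 on the 15 livers).

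Aqp4, a water channel, ran from 4.42 to 16.1 CPM in the controls (median 6.83) and from 13.7 to 38.6 CPM on the diet (median 21.8). Only Control replicate 6 reached into the range of the diet livers. Its log2 fold change was 1.53 ± 0.31 (edgeR adjusted p = 0.018, and 0.18 on the 15 livers). Igf2bp2, an mRNA-binding protein of the fetal growth programme, ran from 1.65 to 4.30 CPM (median 2.69) and from 3.97 to 8.81 CPM (median 4.93). Its log2 fold change was 0.92 ± 0.19 (edgeR adjusted p = 0.018), and 0.71 (adjusted p = 0.0656) without the 4 livers high in neutrophil genes. By edgeR it was the sole call among 24 tested genes of the growth hormone and IGF1 axis, where DESeq2 called 1 higher and 1 lower. Igf1 itself, the circulating growth factor, averaged 1011 ± 333 CPM (SD, n = 8) and 954 ± 164 CPM (n = 7), and its log2 fold change of -0.08, or 0.08 without Control replicate 5, did not pass (edgeR adjusted p = 0.826).

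**Figure D3:**
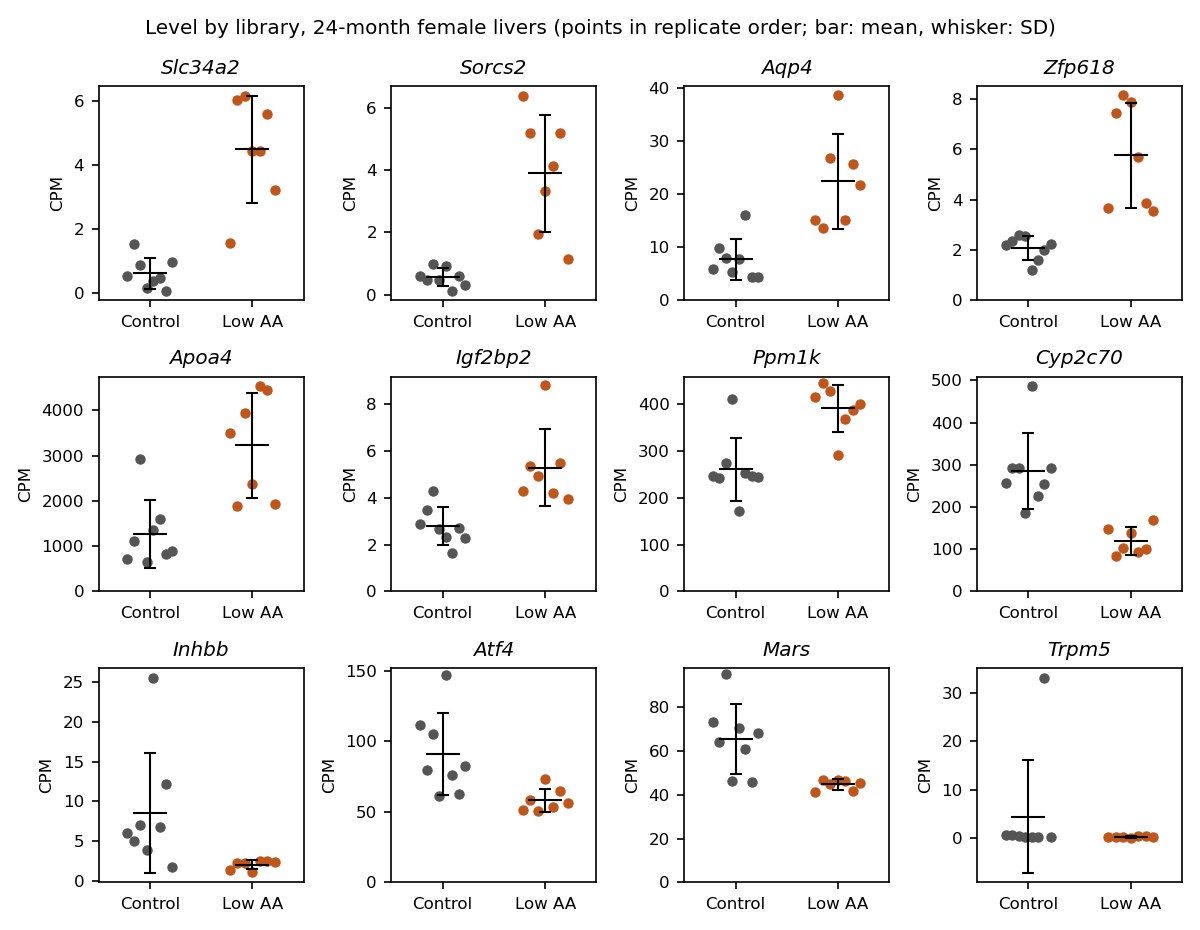
CPM in each of the 8 Control and 7 Low Amino Acid livers (linear y axes, points in replicate order) for 12 called genes, with the mean as a bar and the SD as a whisker. Slc34a2, Sorcs2, Zfp618 and Cyp2c70 show groups that do not overlap, while the Trpm5 difference comes from 1 control liver at 33.1 CPM.

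Among genes of fuel handling, Apoa4, a lipoprotein component secreted by gut and fasted liver (chr9:46240696-46243459), ran from 654 to 2926 CPM in the controls (median 1006) and from 1889 to 4536 CPM on the diet (median 3492). One control, replicate 3, lay within the diet range. The log2 fold change was 1.36 ± 0.30 (edgeR adjusted p = 0.0248; exact permutation p = 0.0125, adjusted over 23 genes), and Apoa4 was the sole call among 23 apolipoprotein and lipoprotein assembly genes. Ppm1k, the phosphatase that activates the branched-chain ketoacid dehydrogenase and so favours breakdown of branched-chain amino acids, ran from 172 to 411 CPM (median 246) and from 291 to 444 CPM (median 401). Its log2 fold change was 0.58 ± 0.14 (edgeR adjusted p = 0.0333), and 1 control, replicate 4, was as high as the diet livers. The other 24 tested genes of branched-chain amino acid breakdown were not called, and the opposing kinase Bckdk had a log2 fold change of 0.10. Pdk2, a kinase that restrains pyruvate oxidation, rose by 0.56 ± 0.12 (edgeR adjusted p = 0.0192) from 53.8 ± 13.6 CPM to 79.0 ± 13.2 CPM.

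Several further risers were regulators with small changes. Nr5a2, a nuclear receptor that drives bile acid and cholesterol handling genes, rose by 0.40 ± 0.09 on the log2 scale (edgeR adjusted p = 0.0291). Prkaca, the catalytic subunit of protein kinase A, ran from 30.5 to 43.5 CPM in the controls (median 37.1) and from 44.4 to 60.1 CPM on the diet (median 48.9), without overlap. Prkaca had a log2 fold change of 0.43 ± 0.10 (edgeR adjusted p = 0.0289). The DNA damage recognition gene Ddb2 (0.51), the small GTPase Rab34 (0.64), Ttc6 (0.71) and Tshz2 (0.71) also had groups that did not overlap. Stap1, an adaptor of immune cells, rose by 1.15 ± 0.28, and the G protein subunit Gna14 by 1.06 ± 0.23, both with overlapping groups. Sulf2, which trims heparan sulfate, rose by 0.87, Fam13a by 0.99, Cdkl4 by 0.99 and the centrosomal gene Cep70 by 0.80.

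Some of the largest log2 fold changes rested on few reads or few livers. Dnah6, an axonemal dynein, averaged 0.432 and 1.48 CPM (log2 fold change 1.76), and Prtg averaged 0.20 and 0.828 CPM (2.02). Pde6c, a photoreceptor phosphodiesterase, reached 16.5 CPM in Low Amino Acid replicate 1 while its median on the diet was 1.92 CPM. Without that liver its log2 fold change went from 2.43 to 1.17 (edgeR adjusted p = 0.285). Trpm5, a cation channel of taste and tuft cells, lay between 0.165 and 0.587 CPM in 7 controls and at 33.1 CPM in replicate 7, the liver high in B cell genes. Without that control its log2 fold change went from -4.34 to -0.60 (edgeR adjusted p = 0.64).

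The clearest fall was in Cyp2c70, the mouse P450 that makes muricholic bile acids (chr19:40153353-40187333). It ran from 186 to 488 CPM in the controls (median 274) and from 83.0 to 169 CPM on the diet (median 103). Every diet liver lay below every control. The log2 fold change was -1.26 ± 0.25 (edgeR adjusted p = 0.018, and 0.0465 on the 15 livers; exact permutation p = 0.0036, adjusted over 23 genes). By edgeR it was the sole call among 27 genes of bile acid synthesis and transport and among 29 P450 genes. DESeq2 called 3 and 2 genes of these lists lower and voom 1 and 1, against 125 and 34 of all 12623. Cyp7a1, the enzyme that sets the pace of the classical bile acid pathway, ran from 8.47 to 532 CPM and from 109 to 443 CPM and did not pass (log2 fold change 0.40, edgeR adjusted p = 0.733). Cyp27a1 of the alternative pathway (-0.47, adjusted p = 0.0878) and the conjugating enzyme Baat (-0.46, adjusted p = 0.0576) missed the threshold in the same edgeR test.

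Inhbb, the subunit of activin B and an inducer of hepcidin, ran from 1.72 to 25.6 CPM in the controls (median 6.39) and from 1.05 to 2.52 CPM on the diet (median 2.19) (chr1:119415465-119422248). In all, 7 of the 8 controls lay above every diet liver, and replicate 8 lay in the diet range. For Inhbb the log2 fold change was -2.08 ± 0.43 (edgeR adjusted p = 0.018; exact permutation p = 0.0125, adjusted over 23 genes). The highest level was in Control replicate 5, which also had the highest acute phase mean (11.03), and without it the log2 fold change was -1.60 (edgeR adjusted p = 0.0602). The part of the acute phase in this difference was not tested. No other of the 29 tested TGF-beta, activin and BMP genes was called by edgeR. DESeq2 called 2 of the 29 lower and voom 0.

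Genes of lipid and sterol synthesis were lower in part. Tm7sf2 and Lbr encode proteins with the same sterol reductase activity. Tm7sf2 ran from 29.8 to 76.6 CPM in the controls (median 57.2) and from 19.9 to 40.4 CPM on the diet (median 35.4), a log2 fold change of -0.81 ± 0.21 (edgeR adjusted p = 0.047). Lbr fell by 0.69 ± 0.17 on the log2 scale (edgeR adjusted p = 0.0444), and Aacs, which uses ketone bodies for lipid synthesis, by 1.46 ± 0.35 (adjusted p = 0.0333). Over all 12623 genes tested 7106 lay below 0 and 5517 above, and 9.56% were lower and 6.91% higher at an unadjusted p under 0.05. Of 22 tested genes of cholesterol synthesis and uptake 21 lay below 0 (median -0.59) and 12 had an unadjusted p under 0.05, but Tm7sf2 was the sole call. That call was fragile: it held in 2 of 15 fits with a liver left out, it was lost without 2 (adjusted p = 0.0665) or 4 livers (0.0651) in edgeR, and in the authors' deposited table Tm7sf2 had an adjusted p of 0.10. Lbr held in 6 and Aacs in 8 of the 15 fits. Sqle, the squalene epoxidase of sterol synthesis, ran from 8.08 to 124 CPM and from 4.06 to 26.5 CPM and did not pass (log2 fold change -1.93, edgeR adjusted p = 0.132). Fasn, the fatty acid synthase, averaged 309 ± 89.4 CPM and 206 ± 73.4 CPM and did not pass (edgeR adjusted p = 0.227; exact permutation p = 0.0992, adjusted over 23 genes). Srebf1, which drives lipid synthesis genes, had a log2 fold change of 0.06. Of 31 tested fatty acid oxidation and ketogenesis genes 23 lay above 0 (median 0.22), 6 of them with an unadjusted p under 0.05, and 0 were called by edgeR, DESeq2 or voom.

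Of 29 tested regulators around GCN2, eIF2 and mTORC1, 0 were called by edgeR. Their median log2 fold change was 0.01, with 16 above and 13 below 0, and 6 were higher and 5 lower at an unadjusted p under 0.05. Over all genes 6.91% were higher and 9.56% lower at that p. The Atf4 transcript was lower on the diet, while ATF4 protein and activity were not measured. Atf4 (chr15:80255184-80257541) ran from 61.4 to 147 CPM in the controls (median 81.1) and from 50.8 to 73.0 CPM on the diet (median 56.1). Of the 8 controls, 6 lay above every diet liver. The log2 fold change was -0.64 ± 0.12 (edgeR adjusted p = 0.015, and 0.283 on the 15 livers), and the exact permutation test gave p = 0.0207 after adjustment over 23 genes. Its highest levels, 147, 112 and 105 CPM, were in Control replicates 5, 1 and 3, of which the former 2 led the controls in acute phase genes. Without replicate 5 the log2 fold change was -0.51 (edgeR adjusted p = 0.0355), and without the 4 livers high in neutrophil genes it was -0.74 (adjusted p = 0.00527). Among 35 tested genes of the integrated stress response, a list that includes tRNA synthetases, 30 lay below 0 (median -0.37). Of the 35, Atf4 and Nars were called by edgeR. Over all genes 7106 of 12623 lay below 0 and 0.246% were called lower by edgeR. DESeq2 called 6 of the 35 lower and voom 4, against 125 and 34 of all 12623.

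The ATF4 targets Asns, Fgf21 and Phgdh varied widely within the controls and did not pass. Asns, asparagine synthetase, ran from 0.163 to 27.7 CPM in the controls (median 0.664) and from 0.111 to 8.65 CPM on the diet (median 1.28). It showed no settled direction: the log2 fold change was -0.66 (edgeR adjusted p = 0.703) with all livers and 1.46 without Control replicate 3, the highest, while the mean log2 CPM was 0.48 higher on the diet. Fgf21, the hepatokine of protein restriction, ran from 5.58 to 126 CPM in the controls (median 14.5) and from 9.33 to 34.6 CPM on the diet (median 11.8). Its log2 fold change was -0.97 ± 0.52 (edgeR adjusted p = 0.343; exact permutation p = 0.764, adjusted over 23 genes), and -0.23 without Control replicate 3, again the highest. Phgdh, the first enzyme of serine synthesis, averaged 3.70 ± 5.24 CPM (median 1.51) and 0.633 ± 0.522 CPM (median 0.411) (log2 fold change -2.53, edgeR adjusted p = 0.0576).

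Of 19 tested cytosolic aminoacyl-tRNA synthetases, which load amino acids onto tRNAs, 18 lay below 0 (median -0.28). By edgeR 3 were called lower: Mars (methionine), Yars (tyrosine) and Nars (asparagine). Over all genes 7106 of 12623 lay below 0 and 0.246% were called lower by edgeR. DESeq2 called 6 of the 19 lower and voom 3, against 125 and 34 of all 12623. With a liver left out in turn, Mars stayed called in 15 of 15 fits, Yars in 9 and Nars in 7. Mars ran from 45.7 to 95.3 CPM in the controls (median 66.1) and from 41.3 to 46.98 CPM on the diet (median 45.4). The diet livers were almost equal to each other, and 6 controls lay well above them. For Mars the log2 fold change was -0.55 ± 0.10 (edgeR adjusted p = 0.0097, and 0.263 on the 15 livers). Yars fell by 0.55 ± 0.12 (edgeR adjusted p = 0.0264) and Nars by 0.46 ± 0.11 (adjusted p = 0.0367). Nars did not pass the exact permutation test (p = 0.0705, adjusted over 23 genes). Aars, for alanine, missed the edgeR threshold at -0.35 (adjusted p = 0.0576). Eif2b4, a subunit of the exchange factor that eIF2 phosphorylation blocks, fell by 0.40 ± 0.10 (edgeR adjusted p = 0.0386).

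ATF4 with a CEBP partner binds a composite element, here searched as TGATGNAA on both strands. Of the 32851 promoters in the RefSeq table (GRCm38.p6), 3.45% held it in the 250 bases before the start, against 3 of the 13 matched synthetase promoters and 10 of the 35 of the integrated stress response list. The promoters of the called genes Yars, Mars (Mars1 in RefSeq) and Atf4 held no match. Nars, also called, had no promoter among the 13 matched, so its promoter was not looked at. The windows of 60 bases around the 3 synthetase matches, shown because synthetases are among the called genes, are printed with the match in capitals. They lie at chr8:111033704-111033763 (plus strand), chr6:55037941-55038000 (plus strand) and chr15:11399659-11399718 (minus strand), with the match 112, 30 and 15 bases before the start.
Aars: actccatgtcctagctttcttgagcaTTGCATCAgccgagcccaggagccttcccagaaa
Gars: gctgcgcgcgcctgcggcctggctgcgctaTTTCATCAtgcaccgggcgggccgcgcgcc
Tars: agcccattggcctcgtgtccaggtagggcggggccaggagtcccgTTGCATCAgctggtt
None of these 3 genes was called. A match is a stretch of letters, and binding was not measured.

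Some genes that build ribosomes were also lower. In a list of 60 such genes, drawn up after the calls had been seen, 56 were tested, 53 lay below 0 (median -0.23) and 7 were called: Tsr1, Ngdn, Heatr1, Ddx21, Wdr74, Bop1 and Pwp2. The list was thus chosen partly for genes that moved, and its count carries no weight as a test. Ddx21, a nucleolar helicase, ran from 52.3 to 92.6 CPM in the controls (median 59.98) and from 39.3 to 52.1 CPM on the diet (median 42.6), without overlap. For Ddx21 the log2 fold change was -0.50 ± 0.12 (edgeR adjusted p = 0.0333). Heatr1, of the small subunit processome, fell by 0.51 ± 0.11, Bop1, of the large subunit, by 0.43 ± 0.10, and Tsr1 by 0.59 ± 0.15. Gart, an enzyme of purine synthesis, fell by 0.30 ± 0.07 (edgeR adjusted p = 0.0264).

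**Figure D4:**
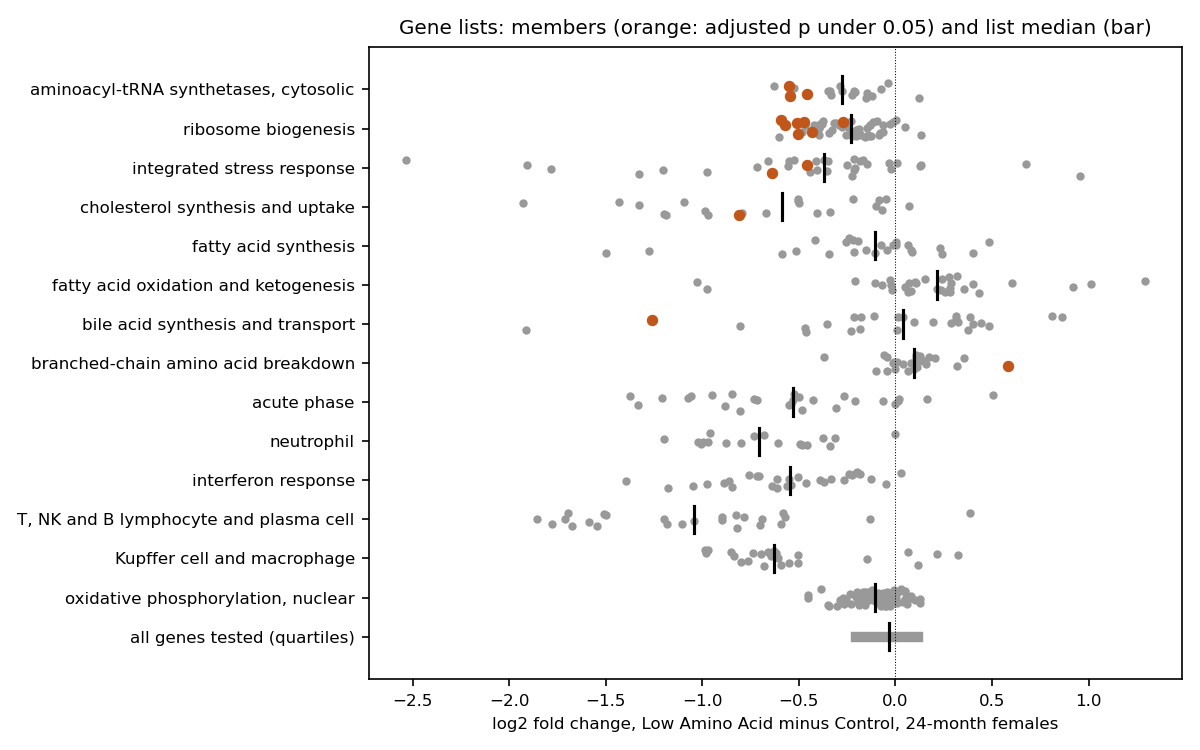
Log2 fold change (x axis, Low Amino Acid minus Control) of every tested member of 14 gene lists, with called genes in orange and the list median as a bar; the lowest line gives the quartiles and median of all genes tested. The synthetase and ribosome lists lie narrowly below 0, with medians of -0.28 and -0.23, while the acute phase, neutrophil and lymphocyte lists are lower and wider without a called gene.

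Of the 43 lists examined besides the ribosome list, 10 had a called member and 33 had none by edgeR, and 21 had none by edgeR, DESeq2 or voom. Those without a call by any of the 3 included the hepatocyte, stellate cell, cholangiocyte, amino acid transporter, amino acid catabolism, urea cycle, fatty acid synthesis, nuclear oxidative phosphorylation, cell cycle and endoplasmic reticulum chaperone lists. Cdkn1a, an inhibitor of cell division raised by stress and senescence, ran from 1.70 to 124 CPM in the controls (median 6.43) and from 2.12 to 21.1 CPM on the diet (median 7.34). It did not pass, and its sign rested on Control replicate 5, with a log2 fold change of -1.18 (edgeR adjusted p = 0.40) with that liver and 0.26 without it. The estrogen receptor gene Esr1 (-0.29, adjusted p = 0.345) and the coactivator gene Ppargc1a (0.50, adjusted p = 0.273) did not pass either in edgeR. Lepr, the leptin receptor, ran from 42.99 to 305 CPM in the controls (median 83.4) and from 132 to 655 CPM on the diet (median 207), and missed both tests (edgeR adjusted p = 0.124; exact permutation p = 0.0596, adjusted over 23 genes).

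At 6 months the same diet gave 0 called genes in females (978 with an unadjusted p under 0.05, edgeR). The 24-month and 6-month effects were compared as a difference of differences, and 0 genes passed by edgeR, DESeq2 or voom (percent called 0.0), with 1260 at an unadjusted p under 0.05 in edgeR. The 6-month animals are separate mice. Of the 46 genes higher at 24 months 38 (82.6%) had the same sign at 6 months, and of the 31 lower genes 27 (87.1%), against 53.2% of all genes. The log2 differences of Igf2bp2 were 0.92 at 24 and 0.94 at 6 months, the latter not called. Slc34a2 had 2.80 and 1.20, Cyp2c70 -1.26 and -0.67, and Atf4 -0.64 and -0.39. By labelled age, starting age and time on diet cannot be told apart.

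In aged males, for which the authors' deposited table is the source, 33 of 45 listed higher genes (73.3%) and 20 of 30 lower genes (66.7%) had the same sign on this diet, against 50.5% of all genes. There 2 of them, of 6 among 11818 genes (0.0508%), passed in the same direction: Sorcs2 (log2 fold change 3.35, adjusted p = 0.0015) and Igf2bp2 (1.07, adjusted p = 0.0382). Mars is not among the values used here from that table, and Yars (0.00) and Nars (0.01) did not pass in males per the authors' deposited table.

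Aged females on Low Isoleucine shared the control livers, so the diets were compared directly. Replicate 5 of the 8 Low Isoleucine libraries held 7.82 M counts, against 21.5 M to 27.6 M in the 15 libraries of the main comparison. The part of this depth in the contrast was not tested. Between the restricted diets 28 genes were higher and 109 lower on Low Isoleucine (percent called 1.09, with 0.222 higher and 0.864 lower, edgeR). Of the 77 genes, 9 were among these. The 77 were picked by the same Low Amino Acid livers, which favours the opposite sign in this contrast. Their differences here are thus no independent support. Sorcs2 was lower on Low Isoleucine by 2.93 on the log2 scale (edgeR adjusted p = 0.00127), Gna14 by 1.28, Stap1 by 1.18, Igf2bp2 by 1.07 and Zfp618 by 1.01. Ppm1k, with a log2 difference of -0.55 (edgeR adjusted p = 0.0387), was the sixth of the higher genes. Against Control, Low Isoleucine gave -0.14 for Sorcs2, -0.22 for Gna14, -0.03 for Stap1, -0.15 for Igf2bp2, 0.04 for Ppm1k and 0.44 for Zfp618. Most of the 77 genes had the same sign there, 42 of the 46 higher and 29 of the 31 lower. The shared controls favour the same sign, so these counts are no test. On Low Isoleucine against the same controls, Atf4 (-0.44, edgeR adjusted p = 0.021) and Cyp2c70 (-0.79, adjusted p = 0.0385) passed. With the control livers shared, this is no independent support. Slc34a2 (1.28), Apoa4 (0.41) and Inhbb (-0.72) did not pass there. Tle4, a corepressor, Ddx21 and Bop1 had the higher level on Low Isoleucine, by 0.65, 0.55 and 0.40. For Slc34a2 (-1.53, adjusted p = 0.109), Apoa4 (-0.95, adjusted p = 0.101) and Cyp2c70 (0.47, adjusted p = 0.366) the difference between the diets did not pass in edgeR, which does not show that the diets act alike.

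**Figure D5:**
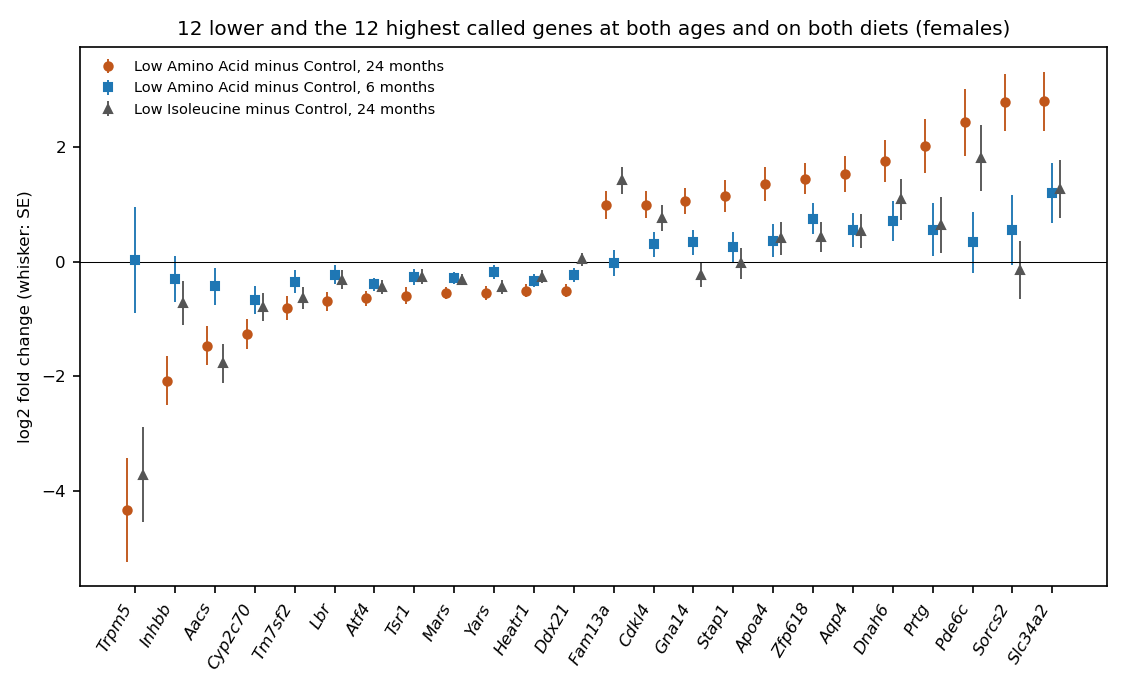
Log2 fold changes with SE (y axis) of 12 lower genes described in the text and the 12 highest of the 77 genes for Low Amino Acid at 24 months (circles), Low Amino Acid at 6 months (squares) and Low Isoleucine at 24 months (triangles). Igf2bp2 is not among the 24 shown; Sorcs2, Gna14 and Stap1 sit at 2.78, 1.06 and 1.15 on Low Amino Acid and at -0.14, -0.22 and -0.03 on Low Isoleucine, which shares the control livers.

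The authors' deposited table for this comparison listed 493 higher and 457 lower genes of 17192 (percent called 5.53, with 2.87 higher and 2.66 lower). Of the genes tested here, 11671 were listed there, 320 of them higher and 392 lower. The deposited fold changes were matched best by the counts when Low Amino Acid replicates 2 and 4 were left out and all 8 controls kept (r = 0.997 over 11670 genes). Those are the diet livers high in neutrophil genes, while Control replicates 1 and 4 appear to have stayed. Leaving out those 2 diet livers alone in the fit of the counts gave 302 higher (2.39%) and 564 lower genes (4.47%, in all 6.86%), among them 17 acute phase and 14 neutrophil genes, all lower. As the diet livers highest in neutrophil genes leave and the high controls stay, the removal itself lowers these genes on the diet, and their count is no test. Of the 77 genes, the authors' deposited table passed 45 of 45 listed higher genes and 24 of 29 lower genes in the same direction. Of the acute phase genes listed there 4 of 32 passed, and of the neutrophil genes 4 of 9, all lower, S100a8 and S100a9 among them. Since its fold changes match best without those 2 diet livers, these counts are no test either. Saa1 (log2 fold change -3.04, adjusted p = 0.0955) and Orm2 (-2.16, adjusted p = 0.11), acute phase genes without counts in the lines used, did not pass in the authors' deposited table.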

How the data were processed

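Per the labels' protocols, stranded libraries with polyA selection were made from snap-frozen liver and striped over 2 lanes, which were merged before expression was estimated. The authors deposited expected counts per gene, not normalized, and tables of their own comparisons with log2 fold changes and p-values. The submitters' processing notes list GRCm38.p5, R 3.4.3, limma and edgeR without saying what each was used for. Aligner, annotation and strand setting were not given in the sources used here. The gene table has 51912 lines, of which 17275 are filled under every column, and 17250 of their identifiers matched GENCODE M21. The values under the 45 male columns do not match the gene names of their lines and were not used, so male results come from the authors' deposited table alone. A deposited F statistic (a score) was not used.

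Expected counts were rounded. Low genes were removed with filterByExpr, given the 6 female groups. Quasi-likelihood tests of edgeR 4.0.16 (R 4.3.3), with TMM scaling and a mean per group, used 47 female libraries. Benjamini-Hochberg adjustment ran over 12623 genes, and a gene was called at an adjusted p under 0.05. SEs were recovered from the fold change and F. Log2 CPM used a prior count of 2. Exact permutation tests of mean log2 CPM (two-sided, numpy 2.4.6) covered 23 genes. Alternatives were DESeq2 1.42.0, voom with quality weights (limma 3.58.1), other size factors, no filter, fewer groups, and libraries left out. Labels do not say whether animals shared cages or litters, so p-values measure the spread between these samples. The animal tags of Control replicates 4 and 6 share their number, as do some tags of other females in the fit. What a shared number stands for is not stated.

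The members of the comparison, the 43 gene lists and the 23 genes were chosen with earlier results of these data known, and the ribosome list after the calls. Genes named in the text are 25 followed genes (the 23, and 2 known only from the authors' table), the 15 highest and 15 lowest calls and, per list, every called member or up to 3 with the smallest p. One called gene that this rule names is not reported here. Other called genes, such as Ddb2, Rab34, Pdk2, Nr5a2, Prkaca, Gart and Eif2b4, and the uncalled genes Alb, Bckdk, Ms4a1 and Cd79a, were picked after their values were seen.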

Additional observations from a re-analysis of the deposited data

Results flagged for a closer look

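In 224 checks of 8 Control or 7 Low Amino Acid livers for a value far from the others of its group (Dixon's criterion, at which chance flags about 1 in 20 groups), 19 stood out. Values are log2 CPM. Control replicate 5, the liver with the highest acute phase mean, was the highest control for Igf1 (10.80, next 10.19), Cyp2c70 (8.93, next 8.19) and Ddx21 (6.53, next 6.01). It was the lowest for Stap1 (2.72), Cep70 (1.09) and Marf1 (6.59). Low Amino Acid replicate 4, also high in acute phase genes, was the highest diet liver for Fga (13.96, next 12.70), Nars (6.92, next 6.47) and Igf2bp2 (3.15, next 2.48). It was the lowest for Sulf2 (4.10), Dixdc1 (5.204), Rbl2 (5.71), Cd79a (-0.92) and Trpm5 (-3.46). That Trpm5 value stands for 0 CPM and is set by the prior count. Low Amino Acid replicate 2 was the highest for Ppargc1a (6.08) and the lowest for Ankrd24 (3.08) and Bckdk (4.06). Control replicate 4 was the lowest control for Bop1 (4.07), and Control replicate 7 the highest for Trpm5 (5.05, next -0.56). The part of the acute phase and of neutrophils in these values was not tested.

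The aged restricted diets differed from each other in 11 of the genes named, by edgeR's quasi-likelihood test over all genes. The log2 difference, Low Isoleucine minus Low Amino Acid, was -2.93 for Sorcs2 (adjusted p = 0.0013), -1.28 for Gna14 (0.0017), -1.18 for Stap1 (0.025), -1.07 for Igf2bp2 (0.0023), -1.01 for Zfp618 (0.046) and -0.55 for Ppm1k (0.039). It was 0.65 for Tle4 (0.011), 0.63 for the bile acid enzyme Cyp27a1 (0.018), 0.55 for Ddx21 (0.015) and 0.40 for Bop1 (0.047). For Saa2 it was -4.90 (0.047), in a gene that spanned 1.96 to 3181 CPM on Low Amino Acid alone.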

How the results depend on the processing

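The number of calls depended more on which libraries entered than on the scaling. The 46 higher and 31 lower genes became 137 and 125 with DESeq2, 2 and 1 in the aged females alone, 2 and 1 in the 15 compared livers, 302 and 564 without Low Amino Acid replicates 2 and 4, and 138 and 190 without those and Control replicates 1 and 4. In the compared livers without those 4, a fit added after seeing the data, 0 and 0 were called. With each of the 15 livers left out in turn, the counts ran from 8 to 113 higher and from 6 to 128 lower. DESeq2's size factors gave 45 and 33 and voom 49 and 34, of which 45 were among the 77 genes. Without the filter on low counts 39 and 21 were called. Without the 6-month Low Isoleucine library with a Y-linked signal, also an added fit, 57 and 37 were called, with all 77 genes kept. Of the 77 genes 76 were still called with DESeq2, 74 without the 2 livers and 68 without the 4. The difference between the ages gave 5 genes without Low Amino Acid replicates 2 and 4, and 0 with each liver left out in turn. Between the restricted diets, 28 higher and 109 lower on Low Isoleucine became 77 and 216 with DESeq2, 312 and 511 with voom, 0 and 9 in the aged females alone, 17 and 61 in the compared groups, and 60 and 204 without the 4 livers. Without Low Amino Acid replicates 2 and 4, 174 were lower. With a liver left out in turn they ran from 4 to 48 higher and from 48 to 171 lower. No value changed sign with a call (0 reversed). The cause of these shifts was not tested. Genes under about 1 CPM, such as Prtg and Dnah6, rest on few reads. Slc34a2 and Sorcs2 also had control medians under 1 CPM. The Trpm5 call rests on 1 control liver, replicate 7, at 33.1 CPM. No paired analysis was possible because the labels carry animal tags and no replicate numbers shared between groups.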
